A study of Mus musculus with 20 samples.

Results

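Genes that mark type 17 lymphocytes were followed through a study of dietary tryptophan in the mouse gut. The 7 genes, of 35204 in the deposited table of counts per gene, were taken by name: the cytokines Il17a, Il17f and Il22, the cytokine receptor Il23r, the chemokine receptors Ccr6 and Cxcr6, and the surface receptor Ncr1. Their rule names genes and holds no expression threshold, but it was set with earlier results of these data known. RNA came from a 0.5 cm piece of the terminal ileum of 20 female C57Bl6 mice that were 7 weeks old when the diets began, with 5 mice in each of 4 groups. The CD group ate a control diet of defined amino acids and the TDD group ate the same kind of diet without tryptophan, both for 3 weeks and with an intact specific-pathogen-free (SPF) microbiota. The CD+ABX and TDD+ABX groups ate these diets while drinking water with ampicillin, vancomycin, metronidazole, neomycin and gentamycin. Per the study's methods that water also held sucrose. The methods do not say whether the SPF mice drank sugar water, so the ABX groups may differ from them by the sugar as well. Poly-A RNA was sequenced from the whole gut wall. A lower value in such bulk RNA can mean fewer cells of a type or less RNA per cell, and these cannot be told apart. Depth was 36676963 to 58662617 estimated counts per mouse.

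Type 17 lymphocytes are T cells and innate lymphoid cells (ILC3) that make IL-17 and IL-22 and live in large numbers in the lamina propria of the ileum. Signals such as IL-23, IL-1 and IL-6, many of them set off by gut bacteria, act on these cells, and IL-17A, IL-17F and IL-22 then act on the epithelium, which answers with antimicrobial proteins, mucus and repair. Metabolites of tryptophan made by bacteria and by the host are ligands of the aryl hydrocarbon receptor (AHR), which supports IL-22 production and the upkeep of ILC3. None of the 7 genes is confined to these cells: Ccr6 is also carried by B cells, Cxcr6 by tissue-resident T and NK cells, and Ncr1 by NK cells and ILC1.

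The tissue label was checked against genes of the small intestinal epithelium. Vil1, the microvillus protein villin, averaged 3680 CPM in CD, where CPM are counts scaled to library size with TMM factors, and Apoa1 averaged 7910 CPM. Fabp6 and Slc10a2, which bind and take up bile acids in the distal ileum, were low in mice without antibiotics. Fabp6 lay between 0.238 and 3.91 CPM in the 10 SPF mice and between 2.65 and 144 CPM in the 10 ABX mice. Slc10a2 lay between 1.38 and 8.8 CPM in the SPF mice and between 13.2 and 86 CPM in the ABX mice. The low Fabp6 and Slc10a2 in SPF mice do not by themselves establish the distal ileum, and the position of the piece was not tested. Fabp6 (5.14 and 3.92 on the log2 scale), Slc10a2 (4.07 and 2.65) and the fatty acid binding protein gene Fabp2 (1.20 and 1.22) were called higher with ABX on CD and on TDD. Fabp6 was at 3.77 on CD without CD+ABX mouse 4 and at 4.77 on TDD without TDD mouse 4, both still called. Expression of these epithelial genes thus differed with ABX before any lymphocyte gene is considered. The part of this difference in the results below was not tested.

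The genes lie on 6 chromosomes (GRCm38, GENCODE M21). Il17a (chr1:20730905-20734496, + strand) and Il17f (chr1:20777146-20790617, − strand) are neighbours. Il22 is at chr10:118204942-118210047 (+), Il23r at chr6:67422932-67491855 (−), Ccr6 at chr17:8236043-8257141 (+), Cxcr6 at chr9:123806475-123811760 (+) and Ncr1 at chr7:4337724-4345164 (+). Only Cxcr6 overlaps another annotated gene, Fyco1 on the opposite strand, and none of its 1931 exonic bases lies in an exon of Fyco1.

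Many nuclear receptors bind a half-site spelled AGGTCA, and AHR binds a core spelled GCGTG. Both were looked for, on either strand, in the 250 bases before the RefSeq start site of each member, to show the letters around such matches. The nuclear receptor half-site was present in 5 of the 7 members and in 14.0% of 32851 mouse promoters of the same length. The AHR core was present in 0 of the 7 and in 28.2% of the promoters. The matches are shown from RefSeq (GRCm38.p6), 5′ to 3′ on the strand of the gene, with the half-site or its reverse complement TGACCT in capitals. They are descriptions of the letters and not evidence of binding. The window of Il17f lies inside the longer GENCODE span of that gene.
Il17a, chr1:20730773-20730802: gtggttctgtgcTGACCTcatttgaggatg
Il17f, chr1:20784311-20784340: cagtcagtaaggAGGTCAgtggaaacaggg
Il23r, chr6:67492067-67492096: catgaccaccatTGACCTgtttgacttctt
Il23r, chr6:67491904-67491933: aaatgaaaatgtAGGTCAgggctctgctga
Ccr6, chr17:8235987-8236016: cagtgaaatcatTGACCTagttacataagt
Ncr1, chr7:4337572-4337601: gcctgaagtcctAGGTCAatggtaaaggga

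Set side by side per length, as TPM (transcript abundance scaled to a fixed total), the members covered a wide range of levels. In CD, Cxcr6 was highest at 3.62 ± 1.80 TPM (SD, n = 5), followed by Ccr6 at 0.988 ± 0.991, Ncr1 at 0.458 ± 0.110, Il23r at 0.125 ± 0.0482 and Il17f at 0.065 ± 0.0619. Il22 averaged 0.00656 TPM and Il17a was listed at 0 in all 5 CD mice. The ranges of neighbours in this order overlapped except between Ncr1 and Il23r. In TDD, Ccr6 came first at 2.08 ± 1.16 TPM and Cxcr6 second at 1.75 ± 0.351, with overlapping ranges. In CD+ABX and TDD+ABX, Cxcr6 was again first, at 1.55 ± 0.146 and 1.49 ± 0.248 TPM. Its range did not overlap that of the next gene, Ncr1, in CD+ABX, but did overlap that of Ccr6 in TDD+ABX.

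The 3 cytokine genes were close to undetectable in every group. Il17a, the cytokine that gives these cells their name, had no count in any CD mouse and none in any TDD+ABX mouse. It had 1 count in TDD mouse 2, 3 counts in TDD mouse 3 and 2 counts in CD+ABX mouse 3, and 0 in the other mice. The 6 counts were thus spread over 3 of 20 mice. Summed over each group, Il17a had 0 counts in CD, where a floor of 3 counts over the group allows up to 0.0138 CPM, and 4 counts in TDD (exact Poisson 95% interval 1.09 to 10.2). It had 2 counts (0.242 to 7.22) in CD+ABX and 0 counts, up to 0.0126 CPM by the same floor, in TDD+ABX. The exact Poisson interval of a group at 0 is 0 to 3.69 counts. Intervals and floors cover counting error only, and all 4 intervals overlap.

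Il22, the cytokine that drives epithelial defence and repair, had 1 count in CD mouse 2 and 1 each in TDD mice 1 and 5. CD+ABX mouse 2 had 3 counts and CD+ABX mouse 3 had 1. All 5 TDD+ABX mice were at 0, which allows up to 0.0126 CPM over the group. Il22 shares 53.6% of its 31-base words with Iltifb, its near-identical copy, so that reads from such stretches cannot be assigned to either gene with certainty. The share of such words was 0% in Il17a, Cxcr6 and Ncr1, 0.165% in Il23r, 0.905% in Ccr6 and 8.75% in Il17f.

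Il17f, which forms dimers with IL-17A, had more counts. The CD mice had 1, 1, 2, 3 and 0 counts, the TDD mice 0, 5, 2, 0 and 7, the CD+ABX mice 1, 1, 4, 0 and 3, and the TDD+ABX mice 0, 5, 0, 5 and 1. Every group held at least 1 mouse without a count, and the 4 ranges overlapped. Most of these counts did not fall on a transcript annotated as coding. Over the 20 mice, 63.4% of the estimated counts of Il17f were assigned to a 604-base transcript with no annotated protein, and 24.6% of the 31-base words of that transcript also occur in transcripts of other genes. The 1178-base coding transcript, which shares none, held 6 counts in 5 mice. An 825-base coding transcript, which shares 12.7% of its words, held 6.23 counts in 5 mice.

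None of the 3 cytokine genes reached 0.5 CPM in any mouse, the filter for the fit across all genes. Il17f was instead compared between groups of 5 mice with a two-sided exact permutation test on log2(CPM + 0.5). Its values allow a p as small as 0.00794 in each of the 4 comparisons between groups. No difference was detectable at this depth: the exact p lay between 0.429 and 0.825, and the largest difference was 0.056 on that scale, in TDD against CD. Il17a and Il22 could not be tested in this way, since at most 2 and 3 of the 10 mice in any such comparison had a count above 0 and the smallest p that their values allow is 0.444 for Il17a and 0.167 for Il22. With no filter, edgeR's quasi-likelihood test gave unadjusted p-values of 0.0418 for Il22 in TDD+ABX against CD+ABX and 0.035 for the interaction of diet and ABX in Il17a. After Benjamini-Hochberg adjustment these became 0.443 and 0.627. The plot of cytokine counts shows how few reads stand behind each value.

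**Figure D1:**
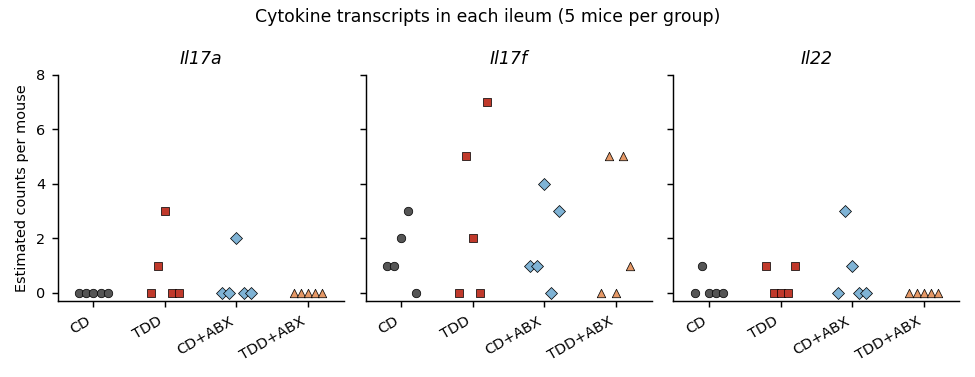
Estimated counts (vertical axis) of Il17a, Il17f and Il22 in each of 5 mice per group (horizontal axis); each point is 1 mouse. No mouse exceeded 3 counts of Il17a or Il22 or 7 counts of Il17f, and each panel has mice at 0 in every group.

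The other 4 members, Il23r, Ncr1, Ccr6 and Cxcr6, passed the filter and entered the fit. A gene was called when its adjusted p from edgeR's quasi-likelihood test was under 0.05 and it changed at least 2-fold. In TDD against CD in SPF mice, 1 of the 4 was called, beside 1.84% of the 16306 genes tested. In ABX against none on CD, 1 of 4 was called, beside 2.3%. No member was called in TDD+ABX against CD+ABX (background 0.331%), in ABX against none on TDD (1.67%) or in the interaction of diet and ABX (0.0245%). In these 3 comparisons DESeq2 and limma-voom also called 0 members. At an unadjusted p under 0.05, 1 member passed in each of them: Ccr6 in TDD+ABX against CD+ABX, Il23r in ABX against none on TDD and Cxcr6 in the interaction. None of them passed after adjustment. The share of all genes under that unadjusted limit is not given here, so these passes are a description and no result about the members. Il23r entered the fit through 1 TDD mouse alone, so its fitted values that involve TDD are a description. Both calls were of Cxcr6. Comparisons that share a group, such as TDD against CD and ABX against none on CD, are not independent of each other.

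Il23r, the receptor subunit that lets these cells respond to IL-23, was low in all 4 groups. The CD mice had 0.165, 0.233, 0.12, 0.275 and 0.358 CPM and the TDD mice 0.201, 0.321, 0.311, 0.523 and 0.306 CPM. The CD+ABX mice had 0.353, 0.144, 0.307, 0.195 and 0.245 CPM and the TDD+ABX mice 0.145, 0.2, 0.186, 0.259 and 0.168 CPM. All 4 groups overlapped, and only TDD mouse 4, with 19 counts, passed 0.5 CPM. Among the comparisons between groups the log2 fold change was largest in size in ABX against none on TDD, at −0.77 ± 0.32 (SE, adjusted p = 0.109, edgeR), and the interaction was −0.88 ± 0.46 (adjusted p = 0.595). For TDD against CD it was 0.51 ± 0.32 in SPF mice, with a 95% interval of −0.12 to 1.14.

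Ncr1 encodes the activating receptor NKp46 of NK cells, ILC1 and part of the ILC3. The CD mice had 0.303, 0.581, 0.439, 0.482 and 0.547 CPM and the TDD mice 0.276, 0.802, 0.621, 0.44 and 0.85 CPM. The CD+ABX mice had 0.794, 0.384, 0.307, 0.37 and 0.339 CPM and the TDD+ABX mice 0.434, 0.46, 0.455, 0.239 and 0.526 CPM. The groups overlapped, and CD+ABX mouse 1 stood above the other 4 mice of its group. The log2 fold changes lay between −0.51 ± 0.32 for ABX against none on TDD and 0.35 ± 0.31 for TDD against CD, with adjusted p-values of 0.281 and 0.503 (edgeR).

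Ccr6, the receptor for the chemokine CCL20, was split within 3 of the 4 groups. The CD mice had 0.413, 1.98, 2.41, 0.229 and 0.231 CPM, so that mice 2 and 3 stood above the other 3. The TDD mice had 0.276, 2.25, 2.36, 3.93 and 3.19 CPM, so that only mouse 1 was low. The CD+ABX mice were all low, at 0.198, 0.12, 0.307, 0.292 and 0.17 CPM. The TDD+ABX mice had 0.393, 0.8, 0.248, 0.239 and 2.68 CPM, and mouse 5 alone was high. The groups overlapped in each of the 4 comparisons between pairs of groups.

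The fitted changes of Ccr6 were large, and so were their errors. TDD against CD gave a log2 fold change of 1.18 ± 0.73 in SPF mice (adjusted p = 0.306, edgeR) and 1.96 ± 0.83 in ABX-treated mice (0.266). ABX against none gave −2.26 ± 0.83 on CD (0.0797) and −1.48 ± 0.74 on TDD (0.181). TDD+ABX mouse 5 weighed on these values. Without it, TDD+ABX against CD+ABX fell from 1.96 to 0.94, and both ABX comparisons passed, at −2.26 with an adjusted p of 0.0467 on CD and −2.49 with 0.0265 on TDD. DESeq2 also called Ccr6 in ABX against none on CD, at −2.26 with an adjusted p of 0.0213. The interaction was 0.78 ± 1.09 and changed sign without TDD+ABX mouse 5, to −0.23.

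Markers of B cells, counted over 6 genes (Ms4a1, Cd79a, Cd79b, Cr2, Pax5 and Fcer2a), moved with Ccr6. Their summed level was 6.47, 61.5, 90.1, 5.71 and 4.69 CPM in the CD mice and 5.09, 92.4, 63.1, 138 and 109 CPM in the TDD mice. It was 2.84, 7.45, 5.32, 4.88 and 7.16 CPM in the CD+ABX mice and 11.4, 22.1, 5.21, 3.9 and 99 CPM in the TDD+ABX mice. The 7 mice with the highest sums, between 61.5 and 138 CPM, were also the 7 mice with the highest Ccr6, between 1.98 and 3.93 CPM. The other 13 mice had sums of 2.84 to 22.1 CPM and Ccr6 of 0.12 to 0.8 CPM. All 6 markers were detected, Cd79a was the most abundant, and none of the 6 was called in any comparison. The study's methods do not say that Peyer's patches, the B cell follicles of the ileum, were removed from the RNA piece.

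With the log2 B cell sum as a covariate, an alternative chosen after these values were seen, the log2 fold changes of Ccr6 shrank. They became 0.13 for TDD against CD, 0.24 for TDD+ABX against CD+ABX, −0.33 for ABX against none on CD and −0.21 for ABX against none on TDD, with adjusted p-values of 0.545 to 0.811 (edgeR). Ccr6 and the B cell sum ran together over the mice, so this shrinkage restates that relation. The part of B cells or follicles in the changes of Ccr6 was not tested. Ccl20, the ligand of CCR6, is made by the epithelium over follicles. It was not called, with log2 fold changes of 0.91 ± 0.63 and 1.68 ± 0.73 for the diet and −2.20 ± 0.72 and −1.43 ± 0.65 for ABX, and adjusted p-values of 0.0514 to 0.372. Of 5 markers of that follicle-associated epithelium, Gp2, a receptor of M cells, was called lower in ABX against none on CD, at −1.90 (adjusted p = 0.0279), beside 1.69% of all genes called lower. The call of Gp2 was kept in 19 of 30 alternatives, and not with the B cell covariate. Spib, Tnfaip2, Anxa5 and Ccl9 were not called in any comparison.

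**Figure D2:**
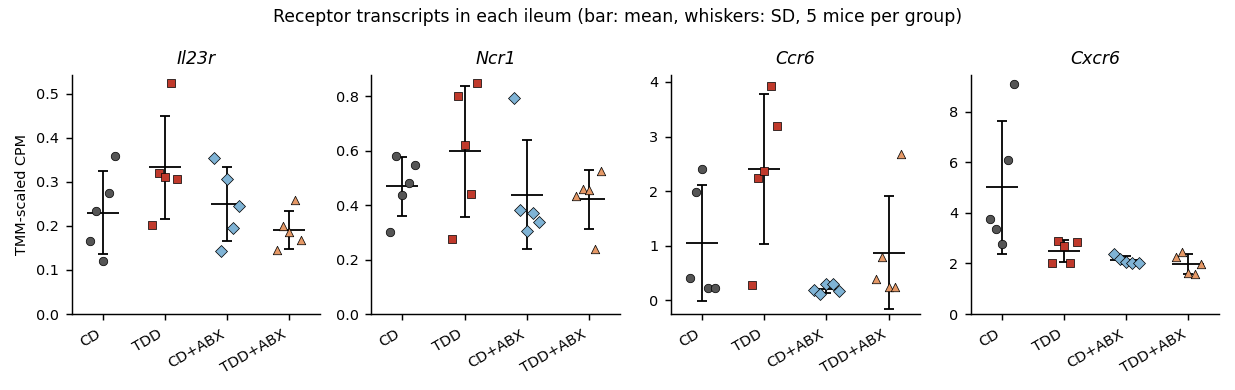
TMM-scaled CPM (vertical axis) of Il23r, Ncr1, Ccr6 and Cxcr6 in each mouse of the 4 groups (horizontal axis); points are mice, bars are means and whiskers are SD (n = 5). Cxcr6 is highest in CD mice 4 and 5, while Ccr6 is split within the CD, TDD and TDD+ABX groups.

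Cxcr6, the receptor for CXCL16 on tissue-resident lymphocytes, was the only member called in the main edgeR fit. It was highest in CD, at 3.75, 3.35, 2.75, 6.08 and 9.09 CPM. The TDD mice had 2.03, 2.89, 2.69, 2.01 and 2.84 CPM, the CD+ABX mice 2.38, 2.18, 2.07, 2 and 2.02 CPM, and the TDD+ABX mice 2.27, 2.46, 1.63, 1.59 and 1.96 CPM. CD mice 4 and 5 were the highest of all, and the TDD range touched that of CD only at CD mouse 3. Every CD+ABX mouse was below every CD mouse, as was the case for 5.88% of the genes tested in that direction.

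The mean of Cxcr6 was 5.0 ± 2.61 CPM in CD and 2.49 ± 0.436 CPM in TDD (SD, n = 5), which edgeR fitted as −1.0 ± 0.25 (SE) on the log2 scale with an adjusted p of 0.0109. This value sits at the 2-fold limit. It dropped under the limit without CD mouse 4 (−0.92), CD mouse 5 (−0.68), TDD mouse 1 (−0.94) or TDD mouse 4 (−0.94). It also did so under limma-voom (−0.86), while fitting the 2 groups alone gave −1.0 with an adjusted p of 0.0661. With the B cell sum as a covariate it was −0.82, with an adjusted p of 0.0744.

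ABX against none on CD gave −1.23 ± 0.25 for Cxcr6, from 5.0 to 2.13 ± 0.157 CPM, with an adjusted p of 0.00383 (edgeR). Without CD mouse 5 the value was −0.90 with an adjusted p of 0.00937, and so past the test but under 2-fold. On TDD the change with ABX was −0.33 ± 0.25 (adjusted p = 0.393), with a 95% interval of −0.82 to 0.16. TDD+ABX against CD+ABX gave −0.10 ± 0.25 (adjusted p = 0.892), with an interval of −0.59 to 0.39. The effect of the diet was thus called without antibiotics only, but the difference between the diet effects, the interaction of 0.90 ± 0.35, did not pass (adjusted p = 0.419, edgeR). Fyco1, in whose span Cxcr6 lies, was not called, at −0.14 ± 0.08 and −0.04 ± 0.08 in the same 2 comparisons on which Cxcr6 was called.

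**Figure D3:**
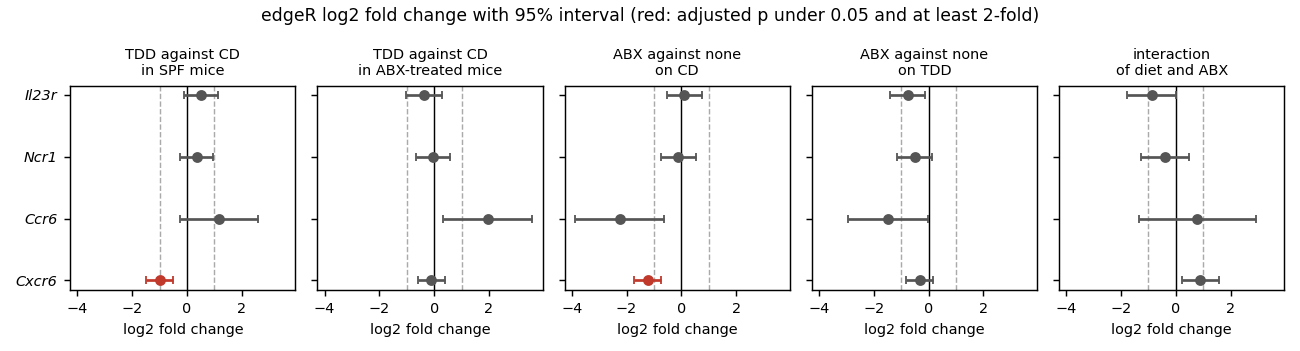
edgeR log2 fold changes (horizontal axis) of the 4 tested members with their 95% intervals in the 5 comparisons; dashed lines mark 2-fold and red marks a call. Only Cxcr6 in TDD against CD (−1.0) and in ABX against none on CD (−1.23) is red, and the intervals of Ccr6 are the widest.

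Markers of T cells moved with Cxcr6. The summed level of 7 T cell markers (Cd3d, Cd3e, Cd3g, Trac, Trbc1, Cd4 and Cd8a) was 43.6, 36.9, 42.5, 69.2 and 105 CPM in the CD mice. It was 30.1, 41.5, 39, 46.8 and 49.4 CPM in the TDD mice, 20.3, 21, 24.5, 20.4 and 25.5 CPM in the CD+ABX mice and 19.5, 27.5, 20.7, 18.9 and 33.9 CPM in the TDD+ABX mice. CD mice 4 and 5 were again the highest and the CD+ABX mice were all below the CD mice. Cd4 was the most abundant marker by its mean over the 20 mice, while Cd8a averaged more in CD (15.1 against 11.8 CPM), and no marker was at or under 3 counts in all mice. In ABX against none on CD, 5 of the 7 were called lower and 0 higher, beside 1.69% of all genes called lower: Trac at −2.11, Cd8a at −1.84, Cd3e at −1.63, Trbc1 at −1.56 and Cd3g at −1.40. The list's median was −1.56 and that of all genes tested was 0. In ABX against none on TDD only Trac was called (−1.29, in 23 of 30 alternatives and not with the B cell covariate), beside 1.29% of all genes called lower. Without the fold limit 4 of the 7 passed lower and 0 higher, where 8.3% of all genes passed lower. Besides Trac these were Cd3e at −0.99 (adjusted p = 0.0206, edgeR), Cd3g at −0.87 (0.0206) and Cd4 at −0.57 (0.0401). The list median there was −0.87 against −0.03. For the diet, 0 of 7 were called in either setting, with medians of −0.48 without and 0.09 with ABX.

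Cxcr6 was also expressed relative to these markers. Per 100 CPM of T cell markers it was 8.31 ± 1.04 CPM in CD, 6.13 ± 1.14 in TDD, 9.66 ± 1.53 in CD+ABX and 8.54 ± 2.12 in TDD+ABX (SD, n = 5). The ranges of CD, 6.48 to 9.07, and of CD+ABX, 7.91 to 11.7, overlapped, with a difference of 0.21 on the log2 scale (exact permutation p = 0.159). TDD, at 4.29 to 6.96, was lower than CD by a log2 difference of −0.45, with an exact permutation p of 0.0317 that became 0.127 after adjustment over the 12 ratios compared, which were chosen after the levels were seen. Over those 12, which also used the markers of NK and of intraepithelial cells, the lowest adjusted value was 0.0953. It belonged to Cxcr6 over the NK cell and ILC1 markers in ABX against none on TDD, a log2 difference of 0.65. Its exact permutation p of 0.00794 is the smallest that 5 against 5 mice allow. A single ratio at that limit could therefore not pass 0.05 after adjustment over the 12. The plot of members beside markers shows both relations.

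**Figure D4:**
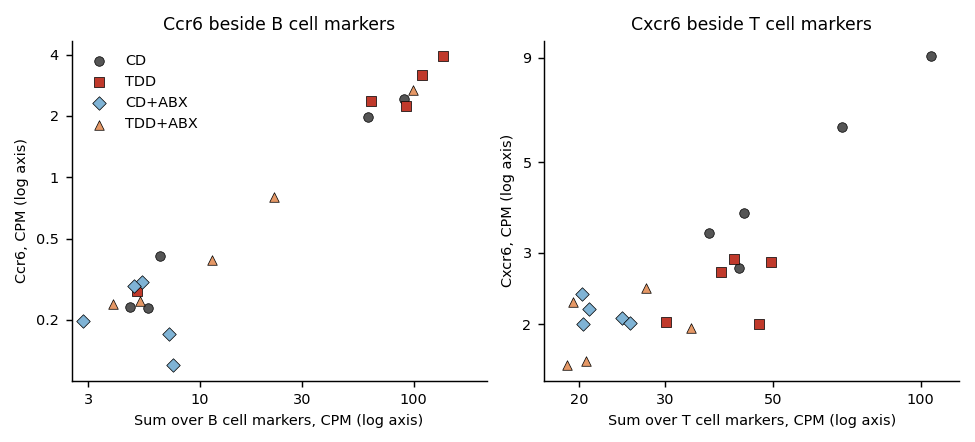
Left, Ccr6 CPM against the summed CPM of 6 B cell markers; right, Cxcr6 CPM against the summed CPM of 7 T cell markers; each point is 1 of 20 mice and all axes are logarithmic. The 7 mice with the highest B cell sums have the highest Ccr6, and CD mice 4 and 5 are at the top right of the second panel.

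The summed markers of intraepithelial and of NK cells were also highest in CD mice 4 and 5. Of 5 markers of gamma-delta and intraepithelial T cells, 4 were called lower in ABX against none on CD, beside 1.69% of all genes: Cd8a at −1.84, Gzmb at −1.46, Itgae at −1.18 and Cd160 at −1.12, with a list median of −1.18 against 0. Cd8a kept its call in 30 of 30 alternatives, Itgae in 28, Cd160 in 24 and Gzmb in 18. Without CD mouse 5 the last 3 were no longer called, at −0.86, −0.80 and −0.75. The other marker, Trdc, the constant gene of the delta chain, was at 0.01 there, and in TDD against CD it passed the test in the higher direction, from 3.23 ± 0.702 to 4.88 ± 0.717 CPM (0.59, adjusted p = 0.0195). In that comparison Cd160 passed in the lower direction (−0.91, adjusted p = 0.0279), and the list median was −0.91. With ABX on TDD, Trdc passed in the lower direction, from 4.88 ± 0.717 to 2.74 ± 0.301 CPM (−0.83, adjusted p = 0.00329, edgeR), without reaching 2-fold. It was the only marker of the list to do so, and 8.3% of all genes passed lower there. The interaction of Trdc was −0.85 (adjusted p = 0.188, edgeR). The sum of the 5 was 70.9 and 109 CPM in CD mice 4 and 5 and 24.5 to 40.2 CPM in the other CD mice.

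Of 7 tested markers of NK cells and ILC1, Eomes, a factor of NK cells, passed the filter through CD mouse 5 alone, at 0.884 CPM, and its fitted value of −3.64 in ABX against none on CD is a description. Of the other 6, 2 were called lower there, beside the same 1.69%, with a median of −0.56 against 0. The cytotoxic genes Prf1 at −2.0 and Gzma at −1.48 kept their calls in 29 and 18 of 30 alternatives, and Gzma was at −0.84 and not called without CD mouse 5. Klrb1c, which encodes the NK receptor NK1.1, was at −0.06 there and passed the test in TDD against CD in the higher direction, from 0.615 ± 0.177 to 1.20 ± 0.354 CPM (0.97, adjusted p = 0.0136). It was the only marker of the list to do so, beside 6.7% of all genes, while Gzma at −0.85 and Prf1 at −0.74 did not pass and the median of the 6 was −0.01. This list summed to 51.2 and 88.6 CPM in CD mice 4 and 5, against 17.3 to 27 CPM in the other CD mice. No gene of either list was called in the other 4 comparisons. The part of any of these cell types in the change of Cxcr6 was not tested.

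Among 4 tested genes of type 1 lymphocytes, Cxcr3, the receptor for interferon-induced chemokines, and Il12rb2, an IL-12 receptor chain, were called lower in TDD against CD at −1.07 (adjusted p = 0.0114) and −1.08 (0.0117), beside 0.993% of all genes called lower, with a list median of −0.84 against 0.01 for all genes tested. Cxcr3 kept this call in 22 of 30 alternatives and lost it, among others, under limma-voom and without CD mouse 4, CD mouse 5 or TDD mouse 1. Il12rb2 kept it in 26 and lost it, among others, without CD mouse 5 or TDD mouse 1. In ABX against none on CD, Cxcr3 at −1.67, Tbx21, the factor of type 1 cells, at −1.34 and Stat4 at −1.34 were called lower, beside 1.69% of all genes, with a list median of −1.34 against 0. Stat4 was also called lower in ABX against none on TDD, at −1.22, beside 1.29% of all genes, with a list median of −0.57 against −0.03. This call was kept in 27 of 30 alternatives, and not with the B cell covariate. The type 1 cytokine Ifng did not pass the filter, with at most 10 counts in a mouse. Of 4 tested type 2 genes, Klrg1 passed the filter through CD mouse 2 alone and is left out of the count. Of the other 3, Il1rl1, the IL-33 receptor, was called higher in ABX against none on TDD at 1.39 (in 24 of 30 alternatives). This stood beside 0.374% of all genes, and it was the only call on that list.

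Of 10 regulators of type 17 cells, all tested, only Irf4 was called. Irf4, which is also a factor of B and plasma cells, was lower with ABX on CD (−1.01 ± 0.29) and on TDD (−1.22 ± 0.29), beside 1.69% and 1.29% of all genes called lower. The call on CD was kept in 18 of 30 alternatives, and not under DESeq2, limma-voom or RLE scaling, and that on TDD in 27. Neither call of Irf4 held with the B cell covariate. Without the fold limit, Hif1a at 0.53 and Id2 at 0.51 passed in TDD against CD, 2 of 10 higher, where 6.7% of all genes did. Batf passed in the lower direction in ABX against none on CD, at −0.91 (adjusted p = 0.0242, edgeR). Ahr, Stat3, Maf and Rora were not called, and Ahr stayed between 15.8 and 17.3 CPM in the 4 group means. The list's medians lay between −0.20 and 0.08.

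Of 7 markers of ILC3 and lymphoid tissue inducer cells, 0 were called in any comparison. The most abundant were Kit, the stem cell factor receptor, Il1r1, the IL-1 receptor, and Il7r, the IL-7 receptor. The summed level of the 7 was 49.8 ± 8.55 CPM in CD, 60.8 ± 8.19 in TDD, 45.9 ± 3.27 in CD+ABX and 44.5 ± 6.15 in TDD+ABX (SD, n = 5). Kit at 24.2 CPM and Il1r1 at 13.5 CPM made up most of the sum in CD. The sum thus mainly follows these genes, and whether it measures ILC3 in whole gut wall was not tested. Il7r passed the test in TDD against CD at 0.64 (adjusted p = 0.0184) without reaching 2-fold. In ABX against none on TDD, Il7r at −0.73 (adjusted p = 0.0103, edgeR) and Tox2 at −0.80 (0.0261) passed in the lower direction. Neither reached 2-fold there, and 8.3% of all genes passed lower. The list's medians in these 2 comparisons were 0.64 and −0.80, against 0.01 and −0.03 for all genes tested.

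Of 14 genes for cytokines that induce type 17 cells and for their receptors, 11 were tested, of which 2 were called lower with ABX on CD (beside 1.69% of all genes) and 1 on TDD (beside 1.29%), while Il6, Il21 and Il12b did not pass the filter. Il12rb1, the chain shared by the IL-12 and IL-23 receptors, was called lower in ABX against none on CD at −1.34 ± 0.24, and in TDD against CD it passed the test at −0.86 ± 0.24 (adjusted p = 0.021) without reaching 2-fold. Il21r, the IL-21 receptor, was called lower with ABX on CD (−1.75 ± 0.46) and on TDD (−1.34 ± 0.45), the latter in 10 of 30 alternatives only, and at −2.0 without TDD+ABX mouse 5. Its call on TDD was lost with the B cell covariate, while that on CD was kept in 30 of 30 alternatives. Il23a, one subunit of IL-23, averaged 0.542 to 0.653 CPM in the 4 groups and was not called. The list had 0 called higher and 0 called lower in both diet comparisons, with medians of 0.12 and 0.08. Besides Il12rb1, the IL-6 receptor Il6ra passed the test in TDD against CD in the higher direction, from 10.8 ± 1.18 to 15.1 ± 1.91 CPM (0.48, adjusted p = 0.00115), as did Il7r. With ABX on TDD, 6 of the 11 passed the test in the lower direction and 0 in the higher, beside 8.3% of all genes that passed lower, with a list median of −0.38 against −0.03. These were Il21r, Il7r at −0.73, the cytokine Il7 at −0.57, Tgfb1 at −0.53, Il6ra at −0.35 and the shared receptor chain Il6st at −0.30, and only Il21r reached 2-fold. Cxcl16, the ligand of CXCR6 made by epithelium and myeloid cells, went the other way from its receptor in TDD against CD, from 42.6 ± 7.37 to 62.7 ± 5.56 CPM (log2 fold change 0.56 ± 0.11, adjusted p = 0.00263). With ABX on TDD it fell by 0.52 on the log2 scale (adjusted p = 0.00542), and neither change reached 2-fold.

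Downstream of the cytokines, of 6 receptor and adaptor genes, Il22ra2, the soluble IL-22 binding protein, was called lower in ABX against none on TDD at −1.06 (adjusted p = 0.0105), beside 1.29% of all genes, and nothing else was called. Il22ra2 kept its call in 24 of 30 alternatives and lost it, among others, without TDD mouse 4, TDD mouse 5 or TDD+ABX mouse 1. Il17rc, an IL-17 receptor chain, went from 118 ± 14.3 CPM in CD to 182 ± 34.6 CPM in CD+ABX, a log2 fold change of 0.63 (adjusted p = 0.00206) and so under 2-fold. Its partner chain Il17ra passed in the lower direction there, from 26.3 ± 1.75 to 22.4 ± 1.35 CPM (−0.23, adjusted p = 0.0171). Of 19 epithelial targets of these cytokines, 15 were tested, but Saa1, Cxcl1 and Cxcl2 passed the filter through TDD mice alone and are left out of the counts that follow. In TDD against CD, 2 of the other 12 were called higher and 0 lower, beside 0.846% of all genes called higher: the antimicrobial lectin Reg3b at 1.88 ± 0.57 and the nitric oxide synthase Nos2 at 2.80 ± 0.70. The median of the 12 was 0.30 against 0.01. Mice of the TDD group differed widely in these genes: Reg3b was at 2840 ± 2890 CPM in TDD and 770 ± 173 CPM in CD, and Nos2 at 22.7 ± 30.7 and 3.24 ± 2.03 CPM (SD, n = 5). TDD mouse 4 was highest in both, at 7580 CPM of Reg3b with 3200 in the next mouse, and at 76 CPM of Nos2 with 21.6 in the next. Without it neither gene was called, at 1.11 (adjusted p = 0.155) and 1.54 (adjusted p = 0.061). Reg3b kept its call in 19 of 30 alternatives and Nos2 in 25. The acute phase gene Saa1 was fitted at 3.07 ± 1.02, a value that rests on TDD mouse 4, at 3.77 CPM with 0.251 CPM in the next highest mouse. Reg3a, of the same family as Reg3b, passed the test in the lower direction, from 166 ± 31.6 to 102 ± 18.4 CPM (−0.71, adjusted p = 0.00483). Lcn2, the siderophore-binding lipocalin, passed in the higher direction, from 1.45 ± 0.382 to 2.24 ± 0.365 CPM (0.62, adjusted p = 0.0293).

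In ABX against none on TDD, 2 of these 12 targets were called lower and 0 higher, beside 1.29% of all genes called lower: Reg3b at −3.52 and Reg3g at −3.24, with a median of −0.17 against −0.03. Both were called in 30 of 30 alternatives, but their size rested in part on TDD mouse 4, without which they were at −2.75 and −2.18. That mouse had 1870 CPM of Reg3g, with 523 CPM in the next highest mouse. Pigr at −0.81 (adjusted p = 0.00286, edgeR) and Zc3h12a at −0.68 (0.00877) also passed lower with ABX on TDD without reaching 2-fold, where 8.3% of all genes passed lower. Saa1 and the neutrophil chemokine Cxcl2 were fitted at −4.53 and −2.41, as descriptions, since each passed the filter through 1 TDD mouse, Cxcl2 at 0.612 CPM. On CD, ABX gave no call in that direction, while the oxidase Duox2 at 1.53 and its maturation factor Duoxa2 at 1.88 were called higher, beside 0.607% of all genes. CD+ABX mouse 4 was highest in both, at 134 CPM of Duox2 with 56.7 in the next mouse, and at 20.9 CPM of Duoxa2 with 7.56 in the next. Without it neither was called, at 0.88 (adjusted p = 0.216) and 1.10 (adjusted p = 0.105). Duox2 kept this call in 10 of 30 alternatives and Duoxa2 in 21. Also with ABX on CD, Fut2 passed the test in the higher direction at 0.99 (adjusted p = 0.00729, edgeR). Reg3a passed there in the lower direction at −0.64 (0.0109), and neither reached 2-fold. In TDD+ABX against CD+ABX and in the interaction, 0 of the 12 were called. Of 8 other IL-17 and IL-10 family cytokines, only Il17d passed the filter, and it was not called.

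The genes whose levels ran most closely with each tested member over the 20 mice were listed as a description, without a test, among 15137 or 15138 genes that averaged at least 0.5 CPM. These correlations of log2(CPM + 0.5) share depth and the clustering of the mice. For Ccr6 they were the B cell genes Blk (r = 0.987), Tnfrsf13c, the BAFF receptor (0.987), and H2-Eb2 (0.984). For Cxcr6 they were Gzmk, a granzyme (0.945), Itgae, the integrin CD103 of intraepithelial lymphocytes (0.937), and Ctsw, a protease of cytotoxic lymphocytes (0.933). For Ncr1 they were Hs3st3b1 (0.859), Ms4a4d (0.848) and Rassf9 (0.789), and for Il23r they were Mob3a (0.731), Col26a1 (0.713) and Psd2 (0.711).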

How the data were processed

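The terminal ileum of 20 mice in 4 groups of 5 was profiled by poly-A RNA-seq. Per the labels and the study's methods, the authors quantified reads with kallisto 0.44.0 against mouse transcripts (GRCm38). They deposited expected counts (estimated counts, rounded to whole numbers per gene) and TPM per transcript, with 0 further columns left unmapped. Transcripts were joined to GENCODE M21, and 111362 of 113193 matched.

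Counts were fitted with edgeR 4.0.16 (quasi-likelihood test, TMM scaling, 1 mean per group) on the 16306 of 35204 genes that reached 0.5 CPM in 1 mouse or more, with Benjamini-Hochberg adjustment over all of them. Calls needed an adjusted p under 0.05 and a 2-fold change. The SE is the log2 fold change divided by the square root of the F statistic. Il17f, which was under the filter, and ratios were compared by two-sided exact permutation tests. The procedure was tested on simulated data, with changes of more than 2-fold set only in genes with more counts than Il23r and Ncr1. That test does not show the power for these members or for 2-fold changes. Il12rb1 counts per gene were 2.0 times the sum of its transcripts, so its level is not given.

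The text names the 7 members, the genes of each list that were called in any comparison (otherwise up to 3 of the most abundant), and the 3 genes most correlated with each tested member. Other genes, such as those passing without the fold limit, were chosen after their values were seen. The members and lists were chosen with earlier results of these data known, and genes not reported here were left out of the lists. Alternatives were DESeq2 1.42.0, limma 3.58.1, other scaling, filters and groups, TPM, a replicate block, leaving out each mouse, and a B cell covariate added later.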

Additional observations from a re-analysis of the deposited data

Results flagged for a closer look

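In a group of 5 mice, a mouse was marked when its gap to the nearest other mouse, divided by the group's range, exceeded 0.71 (Dixon's 95% value). Chance marks about 1 in 20 groups, and 2 mice were marked over 16 tests. TDD+ABX mouse 5 had 2.68 CPM of Ccr6, the nearest mouse had 0.8 CPM, and the ratio was 0.77. CD+ABX mouse 1 had 0.794 CPM of Ncr1, the nearest had 0.384 CPM, and the ratio was 0.843.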

How the results depend on the processing

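Of the members' fold changes under the alternatives, 558 kept their direction and side of the threshold, 12 lost and 3 gained the call, and 11 changed sign; the causes were not tested. Cxcr6 in TDD against CD was no longer called under limma-voom, with only the groups compared, with the replicate block, on log2(TPM + 1), on log2(TPM + 0.1) or with the B cell covariate, each leaving 0 members called. In ABX against none on CD, DESeq2 called 2 members and log2(TPM + 1) called 0. Without a fold limit, 2354, 287, 2083 and 2525 genes passed in the 4 comparisons between groups, in the order used in the report. On log2(TPM + 1), 140, 25, 131 and 98 did. TDD+ABX against CD+ABX gave 98 genes with DESeq2. ABX against none on TDD gave 172 with the B cell covariate. The interaction gave 0 genes with RLE scaling and with limma-voom, 1 with no filter and with a filter in 5 mice, and 51 with DESeq2, against 4.

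Same-numbered mice did not deviate together: 5 of 30 pairs of the same number had a correlation over 0.1, from -0.417 to 0.289, so the numbers do not pair mice. With the replicate block, TDD+ABX against CD+ABX gave 30 genes, the interaction 0, and TDD against CD 0 members (Cxcr6 at -0.95).

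Leaving out 1 mouse gave 221 to 371, 26 to 67, 284 to 405, 173 to 427 and 0 to 14 genes in the 5 comparisons, and 0 to 1, 0 to 0, 0 to 2, 0 to 1 and 0 to 0 members. TDD+ABX against CD+ABX fell to 26 genes without CD+ABX mouse 4. ABX against none on TDD went to 173 without TDD+ABX mouse 1 and to 427 without TDD+ABX mouse 5. The changes of sign were all in members that were not called there. Ncr1 in TDD+ABX against CD+ABX became 0.02 on log2(TPM + 0.1), 0.27 without CD+ABX mouse 1 and 0.10 without TDD+ABX mouse 4, with a range of -0.15 to 0.27 over the mice left out. Ncr1 in ABX against none on CD became 0.07, and Cxcr6 in TDD+ABX against CD+ABX 0.02, with the B cell covariate. Il23r in ABX against none on CD became -0.06 without CD mouse 3 and -0.04 without CD+ABX mouse 1, with a range of -0.06 to 0.34. The interaction of Ccr6 became -0.16 under limma-voom, -0.20 on log2(TPM + 1), -0.13 on log2(TPM + 0.1) and -0.23 without TDD+ABX mouse 5, with a range of -0.23 to 1.05. Of 41 calls of genes on the lists, 12 held under every alternative, 29 were lost in at least 1 and 0 changed sign. Depth limited the 3 cytokine genes, with at most 7 counts in a mouse.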
